A study of Mus musculus with 18 samples.

Results

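How far the response of macrophages to the cell wall fragment GM depended on TLR4 was measured as a difference between responses. For each gene, the change with GM in TLR4-knockout cells was subtracted from the change with GM in wild-type cells, in 12 of the 18 libraries of the series. The 12 were taken by their labels, and no measured value chose them. They form 4 groups of 3 libraries, namely TLR4-knockout macrophages with GM for 24 h, TLR4-knockout macrophages with water for 24 h, wild-type macrophages with GM for 24 h and wild-type macrophages with water for 24 h. All 4 groups were bone marrow-derived macrophages of C57BL/6J mice, grown in medium with supernatant of L929 cells, which secrete M-CSF, and treated on day 7 in serum-free IMDM medium. GM is the disaccharide GlcNAc-MurNAc, the repeating unit of the glycan strands of bacterial peptidoglycan. The labels give neither its dose nor the kind of mutation in Tlr4, and they do not say whether knockout and wild-type mice were littermates, so gaps between the genotypes may include differences other than Tlr4. They call the 3 libraries of a group biological replicates without naming separate mice or dishes. The p-values therefore cover the spread among these libraries, part of which may be technical. The 6 libraries treated with the muramyl peptide MDP enter only as an alternative fit.

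TLR4 is a membrane receptor of macrophages, known best for sensing bacterial lipopolysaccharide together with its partner MD-2 (gene Ly96) and the co-receptor CD14. Through the adaptor MyD88 it drives NF-kB and MAP kinases, which switch on cytokine genes such as Il6, Il12b, Tnf and Il1b. From endosomes it signals through the adaptor TRIF to IRF3 and interferon beta, and secreted interferon then switches on a second wave of genes through its own receptor. Muramyl peptides, by contrast, are sensed in the cytosol by NOD2, which acts through the kinase RIPK2.

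The 12 libraries held 15532973 to 21128507 counts, and 15117 of 56748 genes had enough counts to be tested. The first principal component (62.8% of the variance of the most variable genes) separated the genotypes. On the second (18.6%), wild-type water replicate 3 lay at 33.5, against -37.3 and -32.2 for wild-type water replicates 1 and 2, and close to wild-type GM replicates 1 and 3 at 20.4 and 35.3. The biological coefficient of variation was 6.1% in knockout GM, 5.68% in knockout water, 27.4% in wild-type GM and 35.3% in wild-type water. Of 21 macrophage identity genes 19 were tested, with a summed level of 47900 to 62300 CPM (counts scaled to 1000000 on the normalised scale) over all 12 libraries. Summed levels of 14 tested fibroblast and stroma markers were 30.7 to 34.2 CPM in knockout GM, 37.6 to 41.4 CPM in knockout water and 98.6 to 155 CPM in wild-type GM. In wild-type water they were 434, 390 and 93.1 CPM in replicates 1, 2 and 3. Cell cycle genes summed to 1550 to 1590 CPM in knockout GM, 1850 to 1970 CPM in knockout water and 447 to 875 CPM in wild-type GM. In wild-type water they summed to 1070, 961 and 498 CPM, so replicate 3 was low on both lists. Sums of other marker lists also moved with genotype. The single genes given for them were named after their values were seen. Monocyte markers (11 tested) summed to 1630 to 2080 CPM in knockout libraries and 540 to 903 CPM in wild-type libraries. Chil3 held 139914 counts of this list over the 12 libraries and the next, Ly6c2, 47669. Of the 11 markers 4 passed as higher and 2 as lower in knockout water, and 3 and 2 under GM. Dendritic cell markers (9 tested) summed to 678 to 781 CPM in knockout libraries and 1230 to 1860 CPM in wild-type libraries, and osteoclast markers (7 tested) to 831 to 958 CPM in knockout and 1280 to 1800 CPM in wild type. In the dendritic cell list Itgax held 196125 counts over the 12 libraries, Bst2 42296 and the next, Clec9a, 3194. Bst2 is also an interferon response gene. Of the 9 markers 5 passed as lower and 1 as higher in knockout water, and 4 and 0 under GM. In the osteoclast list Atp6v0d2 held 197314 counts and the next, Ctsk, 20689. Of the 7 markers 2 passed as lower and 2 as higher in knockout water, and 2 and 1 under GM. T, B and NK cell markers (9 tested) summed to 19.7 to 25.5 CPM in knockout libraries and 9.3 to 15.9 CPM in wild-type GM, and to 43.4, 37.8 and 10.6 CPM in wild-type water. The part of these markers in the results was not tested. In bulk RNA, fewer cells of a type and less RNA per cell cannot be told apart.

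Tlr4 itself (ENSMUSG00000039005, chromosome 4, 66745821 to 66848521, plus strand, GRCm39) measured 39.3, 38.8 and 36.3 CPM in knockout GM libraries and 51.7, 52.6 and 46.1 CPM in knockout water libraries. Wild-type libraries held 191, 178 and 184 CPM with GM, against 154, 148 and 228 CPM in water. Every knockout library lay below every wild-type library, and the gap was wide under GM (log2 -2.27, adjusted p = 6.7e-06) and in water (log2 -1.82, adjusted p = 2e-05). Counts over parts of the gene that the allele keeps would remain in knockout cells. Its interaction did not pass (log2 0.46, SE 0.20, adjusted p = 0.61), although it did without wild-type water replicate 3 (log2 0.65). A long noncoding RNA that lies inside Tlr4 (ENSMUSG00000121059, chromosome 4, 66762713 to 66764269), singled out after its values were seen, did pass (log2 1.95, SE 0.31, adjusted p = 0.013). It averaged 0.459 ± 0.148 in knockout GM, 1.76 ± 0.244 in knockout water, 21.1 ± 3.99 in wild-type GM and 20.8 ± 1.09 CPM in wild-type water (SD, n = 3 each), so its interaction lay in the knockout cells, whose change did not pass (log2 -1.93, adjusted p = 0.081), beside a wild-type change near 0 (log2 0.02, adjusted p = 0.98). Its knockout level was lower in both conditions (-5.52 under GM and -3.56 in water). It lies on the plus strand like Tlr4, so counting by strand would not separate the 2. Its counts and those of Tlr4 may therefore share reads.

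The interaction passed for 144 of the 15117 genes (0.953%), by edgeR's quasi-likelihood test at a Benjamini-Hochberg adjusted p below 0.05. In 142 of them (0.939% of the genes tested) the GM response was larger in wild type, and in 2 (0.0132%) it was lower. Of the 144 genes, 135 code for proteins and 8 are long noncoding RNAs. The difference between the responses was at least 2-fold in 119 of the 142 genes and at least 16-fold in 27. GM against water in wild type passed as higher for 139 of the 142, where 2.81% of all genes passed in either direction. For 141 every wild-type GM library lay above every wild-type water library, as in 7.2% of all genes, and the members were selected on these levels. The 3 whose wild-type response did not pass were ENSMUSG00000121059, Slco4a1 (log2 0.52, adjusted p = 0.2) and Tent5c (log2 0.24, adjusted p = 0.18), named after their values were seen. Their fitted knockout change was negative and larger than the wild-type change, but did not pass. In knockout cells GM against water passed for 0 of the 142, and for 0 genes in all (0% of those tested). That count of 0 stands beside 555 genes at an unadjusted p under 0.05, and beside 34 genes called by DESeq2 and 343 by a limma-voom fit that gave every group its own spread. The fitted knockout change was positive in 75 of the 142 genes and negative in 67. By the limma-voom fit 18 of the 142 genes changed with GM in knockout cells, 8 upwards and 10 downwards.

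**Figure D1:**
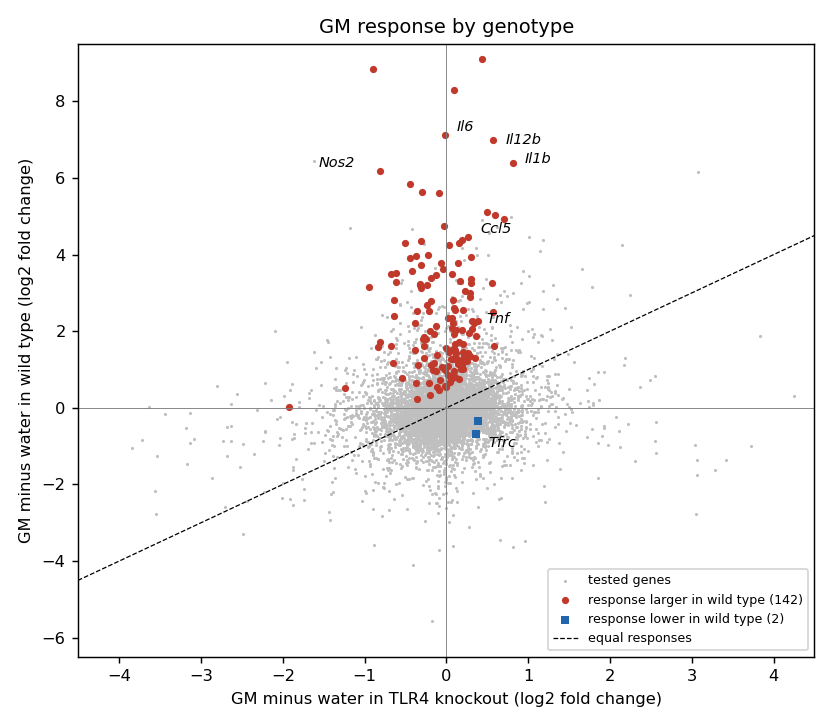
GM response of each of the 15117 tested genes, as log2 fold change of GM over water in TLR4-knockout cells (x axis) and in wild-type cells (y axis); the dashed line marks equal responses. The 142 red points lie above the line, most of them high on the wild-type axis and close to 0 on the knockout axis. In 3 of them the fitted knockout change is the larger one (ENSMUSG00000121059 at -1.93, Slco4a1 at -1.24 and Tent5c at -0.36), and the 2 blue squares lie below the line.

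Because the interaction is a difference of 4 levels, it can come from what GM adds or from where the cells stood in water. Each gene was placed by which genotype difference, knockout minus wild type, passed in the same fit. For 52 genes only the gap under GM passed, for 18 only the gap in water, and for 74 both. A gap that did not pass is not shown to be absent: in 19 of the 52 genes the genotypes did not overlap in water, and in 8 of the 18 they did not overlap under GM. The split moved with the fit. Of the genes that still passed, 49 were placed in the GM level, 7 in the water level and 33 in both with limma-voom. Without knockout GM replicate 2 these counts were 18, 14 and 39, and with a replicate block within genotype 54, 24 and 35, with 4 in neither. Over all genes the background is high, since knockout and wild type differed in 30% of genes under GM and in 25.2% in water, with knockout higher under GM in 13.3%, lower under GM in 16.7%, higher in water in 10.8% and lower in water in 14.3%. In 48 of the 74 genes the order of the genotypes crossed: knockout cells had the lower level under GM and the higher level in water. In 10 they were lower in both, and in 16 higher in both. The median knockout minus wild-type gap of the 52 genes was log2 -1.75 under GM and 0.19 in water, that of the 18 genes -0.10 under GM and 1.62 in water, and that of the 74 genes -1.26 under GM and 1.42 in water. The gap under GM was the larger of the pair in 86 genes and the gap in water in 58. Over single libraries, knockout and wild-type levels did not overlap under GM in 134 of the 144 genes (51.3% of all genes) and in water in 111 (44.9% of all genes). The 144 were selected on these same levels.

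**Figure D2:**
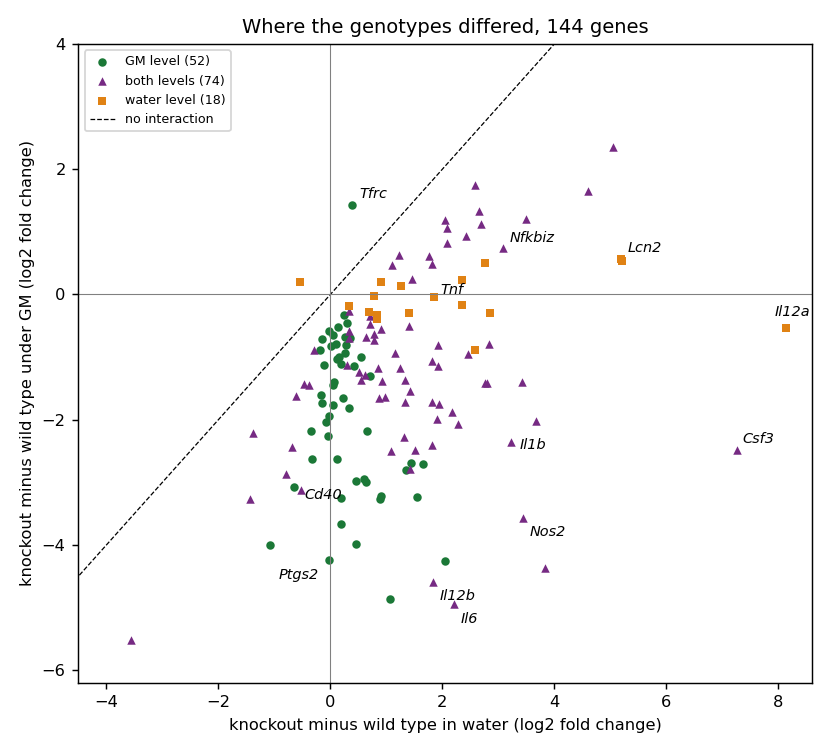
Genotype gap (log2 of knockout over wild type) in water (x axis) and under GM (y axis) for the 144 genes with an interaction; colour and shape give the level at which the genotypes differed, and points below the dashed line have the larger response in wild type. Csf3 and Il12a, at 0 counts in wild-type water, are drawn at fitted values that are no bounds. Genes right of 0 and below 0 were higher in knockout water and lower in knockout GM.

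The fit of 12 libraries was repeated under 19 alternatives, and 53 of the 144 genes passed in all of them, 40 of the 74 placed in both levels, 11 of the 52 placed in the GM level and 2 of the 18 placed in the water level. Leaving out wild-type water replicate 3 kept all 144 genes and brought the count to 515, of which 395 were larger and 120 lower in wild type. Leaving out any knockout library brought it to between 71 and 90. For each passing gene below with its levels given, the alternatives it passed or failed are stated where it did not pass all 19.

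Cytokine genes were among those with the largest interactions. Il6, which encodes the fever and acute-phase cytokine interleukin 6 (ENSMUSG00000025746, chromosome 5, 30218112 to 30224979, plus strand), measured 3.61, 3.04 and 3.21 CPM in knockout GM libraries and 3.7, 2.97 and 3.34 CPM in knockout water libraries. The wild-type levels were 112, 55.5 and 137 CPM with GM and 0.552, 0.666 and 0.934 CPM in water. It stayed near 3 CPM in the 6 knockout libraries, while all wild-type GM libraries stood more than an order of magnitude higher and all wild-type water libraries below 1 CPM. Its interaction was log2 7.16, SE 0.47, adjusted p = 5.4e-05, made of a lower knockout level under GM (log2 -4.94, adjusted p = 6.7e-06) and a higher one in water (log2 2.21, adjusted p = 0.0021). Il12b, the p40 subunit shared by interleukins 12 and 23 (chromosome 11, 44290890 to 44304860), measured 13.7, 17.2 and 19.3 CPM in knockout GM libraries and 9.83, 11.5 and 12.4 CPM in knockout water libraries. Its level in wild type was 447, 224 and 538 CPM with GM and 3.46, 5.51 and 0.549 CPM in water. It differed in both levels too (interaction log2 6.42, SE 0.74, adjusted p = 0.0016), and wild-type water replicate 3 was the lowest library of all 12 (interaction log2 5.89 without it). The partner subunit p35, Il12a, had 0 counts in all 3 wild-type water libraries, against 31, 47 and 28 counts in knockout water, 66, 30 and 58 counts in knockout GM and 81, 35 and 75 counts in wild-type GM. The GM level of Il12a overlapped between the genotypes (log2 -0.54, adjusted p = 0.34), so its difference lay in the water level. With wild-type water set at the floor of 3 counts over the group, knockout water was at least 33.5-fold higher and the interaction at least log2 5.61. Il12a passed in 18 of 19 alternatives (adjusted p = 0.26 in the limma-voom fit).

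Il1b, the precursor of interleukin 1 beta (chromosome 2, 129206490 to 129213059), measured 143, 128 and 134 CPM in knockout GM libraries and 74, 77.5 and 79.7 CPM in knockout water libraries. In wild-type cells it measured 755, 401 and 924 CPM with GM and 7.07, 5.57 and 12 CPM in water. The 4 groups did not overlap, and knockout cells stood between the wild-type extremes in both conditions (interaction log2 5.59, SE 0.44, adjusted p = 0.00011; knockout minus wild type -2.36 under GM and 3.23 in water). Knockout GM libraries lay above knockout water libraries for Il1b, but that change did not pass (log2 0.81, adjusted p = 1). Csf3, the granulocyte colony-stimulating factor G-CSF, had 14, 12 and 7 counts in knockout GM, 19, 20 and 18 in knockout water, 55, 53 and 54 in wild-type GM and 0 in every wild-type water library. It differed in both levels, with knockout lower under GM (log2 -2.48, adjusted p = 0.0012), at least 18.4-fold higher in water and an interaction of at least log2 6.68 against the same floor.

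Tnf, which encodes tumour necrosis factor (chromosome 17, 35418357 to 35420983), differed from Il6 in where its gap lay. It measured 74.7, 70.6 and 77.7 CPM in knockout GM libraries and 51.4, 64.8 and 60.5 CPM in knockout water libraries. Wild-type libraries held 84.4, 59.1 and 85.8 CPM with GM, against 18.4, 18.9 and 11.6 CPM in water. Under GM the genotypes overlapped (log2 -0.04, adjusted p = 0.89), and 98% of the interaction (log2 1.89, SE 0.27, adjusted p = 0.0062) came from the water level, which was higher in all 3 knockout libraries (log2 1.85, adjusted p = 0.00011). In knockout GM libraries Tnf was above knockout water without passing (log2 0.34, adjusted p = 1). Whether the gap of Tnf is unlike that of Il6 was not tested. Of 24 listed inflammatory cytokine genes 19 were tested and 9 had a larger response in wild type, 6 placed in both levels, 1 in the GM level and 2 in the water level. The other 3, named after their values were seen, were Tnfsf15, Il1a and Ebi3. Il1a averaged 72.1 ± 2.74 in knockout GM, 65.1 ± 4.87 in knockout water, 577 ± 220 in wild-type GM and 41.8 ± 29.5 CPM in wild-type water (SD, n = 3 each). Its gap passed under GM (log2 -3.00, adjusted p = 0.00071) but not in water (log2 0.64, adjusted p = 0.27), where the libraries overlapped. The interaction of Il1a (log2 3.64, SE 0.59, adjusted p = 0.015) passed in 14 of 19 alternatives. Tnfsf15, the T cell co-stimulator TL1A, lies 3.1 Mb from Tlr4 on chromosome 4. It averaged 14.3 ± 2.05 in knockout GM, 16.7 ± 1.54 in knockout water, 38 ± 11 in wild-type GM and 2.4 ± 1.57 CPM in wild-type water. Knockout cells were lower under GM (log2 -1.41, adjusted p = 0.021) and higher in water (log2 2.79, adjusted p = 0.0013; interaction log2 4.20, SE 0.59, adjusted p = 0.0059). The median interaction of the 19 was log2 1.90, also with Csf3 and Il12a at their bounds, against -0.03 over all genes tested, and the median GM response was -0.01 in knockout and 2.23 in wild type. Il10 and Ifnb1 had too few counts to be tested. Il10, the anti-inflammatory cytokine, had 1, 1 and 1 counts in knockout GM, 2, 6 and 6 in knockout water, 22, 9 and 22 in wild-type GM and 4, 0 and 0 in wild-type water. Ifnb1, interferon beta, had 0 to 4 counts in every library.

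**Figure D3:**
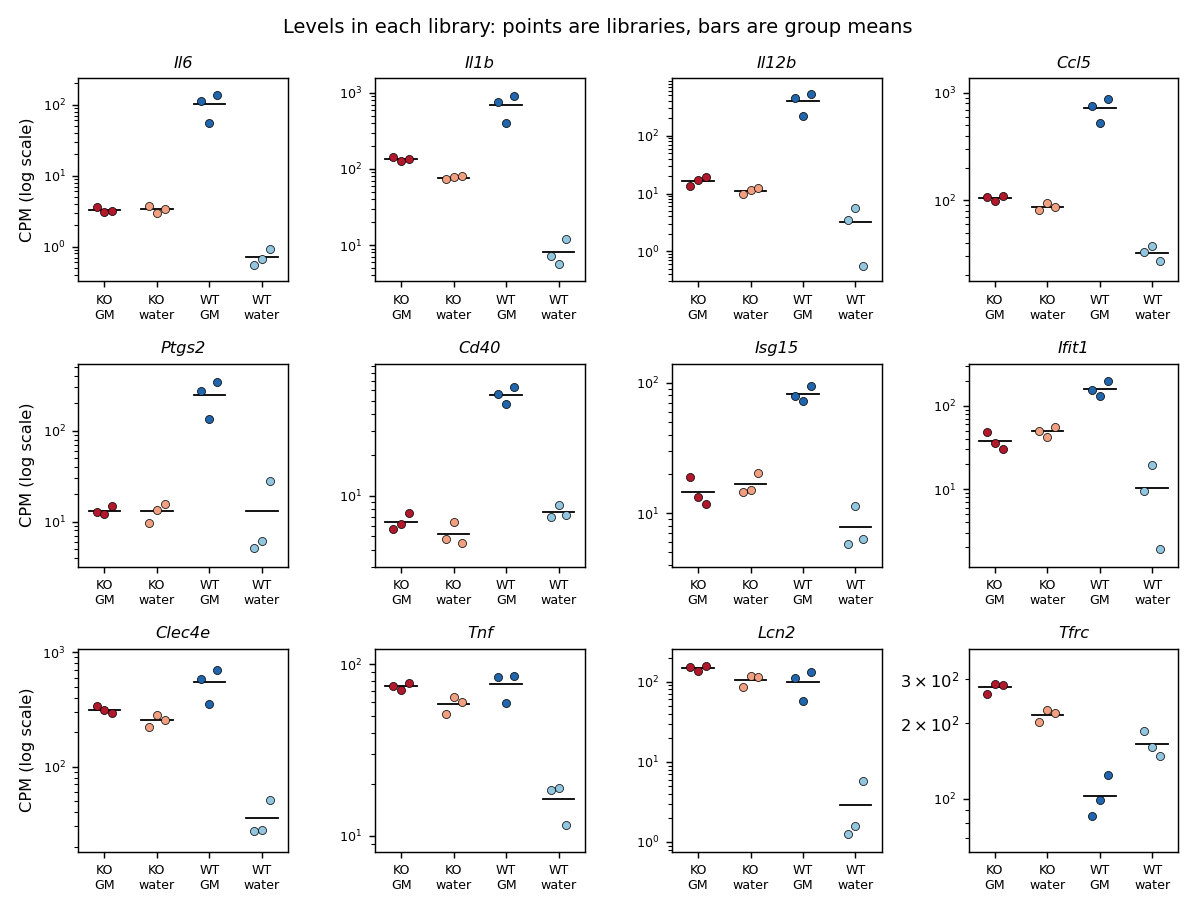
Level of 12 genes in each library (CPM, log scale), with knockout groups left of wild-type groups and GM left of water; points are libraries and bars are means of 3. In knockout cells the GM and water means differ by less than 2-fold for all 12 genes, whereas in wild-type cells GM is above water for 11 and below it for Tfrc.

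All 5 chemokine genes with an interaction had a gap between the genotypes that passed under GM, and 2 of them one in water too. Ccl5, which attracts T cells and monocytes (chromosome 11, 83416604 to 83421344), measured 107, 98 and 110 CPM in knockout GM libraries and 81.5, 93.9 and 85.7 CPM in knockout water libraries. The wild-type levels were 747, 529 and 881 CPM with GM and 33.2, 37.4 and 27.1 CPM in water. Its interaction was log2 4.20, SE 0.25, adjusted p = 5.2e-05, with knockout lower under GM (log2 -2.78, adjusted p = 6.7e-06) and higher in water (log2 1.42, adjusted p = 0.00029), and the libraries of the 4 groups did not overlap. Cxcl1, a neutrophil attractant, measured 1.37, 1.87 and 2.05 CPM in knockout GM libraries and 1.27, 1.28 and 0.928 CPM in knockout water libraries. Its level in wild type was 34, 15.3 and 35 CPM with GM and 0.201, 0.424 and 1.92 CPM in water. Only its gap under GM passed (log2 -3.98, adjusted p = 0.00064), and the water libraries of the genotypes overlapped. Cxcl1 (log2 4.44, SE 0.84, adjusted p = 0.035) passed in 8 of 19 alternatives (adjusted p up to 0.16), and without wild-type water replicate 3, its highest wild-type water library, the interaction was log2 5.87. Cxcl10, the interferon-induced attractant of T and NK cells, averaged 3.38 ± 0.625 in knockout GM, 5.18 ± 0.675 in knockout water, 21.8 ± 3.8 in wild-type GM and 1.9 ± 1.41 CPM in wild-type water (SD, n = 3 each). It was placed in the GM level (log2 -2.69, adjusted p = 0.0028), although its knockout libraries also lay above wild type in water without passing (log2 1.44, adjusted p = 0.061), and passed in 11 of 19 alternatives (log2 4.13, SE 0.71, adjusted p = 0.02; log2 3.59 without wild-type water replicate 3). Ccl22, which recruits regulatory T cells through CCR4, averaged 295 ± 36.5 in knockout GM, 339 ± 31.7 in knockout water, 1404 ± 432 in wild-type GM and 351 ± 84.9 CPM in wild-type water. Only its gap under GM passed (interaction log2 2.20, SE 0.32, adjusted p = 0.007; knockout minus wild type -2.25 under GM and -0.05 in water). Of 24 chemokine genes 23 were tested and 5 had a larger response in wild type, with Cxcl16 as the other one and a list median of log2 0.80. The knockout level was lower under GM for 20 of the 23, where 16.7% of all genes were, and lower in water for 10, where 14.3% of all genes were.

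The start regions of Il6, Cxcl1 and Cxcl10 are shown because they hold the 9 letters GGANTTNCC, a short form of the kB element to which NF-kB binds. Sequences are from RefSeq (GRCm38.p6, a build other than that of the count table), each with 250 bases before and 50 after the start, read 5′ to 3′ on the gene's strand. Capitals mark matches on either strand to GGANTTNCC or to GAAANNGAA, a short form of the interferon-stimulated response element (ISRE). Il6 (chr5:30012864-30013163, plus strand) and Cxcl1 (chr5:90890995-90891294, plus strand) hold 1 kB match each, and Cxcl10 (chr5:92348840-92349139, minus strand) holds 2 kB matches after 1 ISRE match.
Il6: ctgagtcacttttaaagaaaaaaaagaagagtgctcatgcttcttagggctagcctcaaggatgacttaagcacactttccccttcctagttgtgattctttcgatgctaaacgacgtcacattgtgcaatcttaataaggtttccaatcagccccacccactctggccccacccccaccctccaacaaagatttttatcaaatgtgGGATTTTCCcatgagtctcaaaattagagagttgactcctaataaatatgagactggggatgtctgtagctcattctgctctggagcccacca
Cxcl1: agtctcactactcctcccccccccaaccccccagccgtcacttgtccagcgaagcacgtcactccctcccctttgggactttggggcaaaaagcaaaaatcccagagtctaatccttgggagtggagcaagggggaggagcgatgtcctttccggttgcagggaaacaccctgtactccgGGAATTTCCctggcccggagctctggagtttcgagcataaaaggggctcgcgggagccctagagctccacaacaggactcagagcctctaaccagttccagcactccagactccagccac
Cxcl10: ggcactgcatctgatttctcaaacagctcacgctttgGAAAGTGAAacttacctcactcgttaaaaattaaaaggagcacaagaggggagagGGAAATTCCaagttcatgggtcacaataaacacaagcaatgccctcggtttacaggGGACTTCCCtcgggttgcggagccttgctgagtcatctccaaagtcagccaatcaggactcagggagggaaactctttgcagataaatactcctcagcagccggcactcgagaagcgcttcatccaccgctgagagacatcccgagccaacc

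By size of interaction 14 protein-coding genes with a mean of at least 5 CPM in a group were named, 12 larger and 2 lower in wild type. Csf3 and Il12a had larger interactions than all of these but lay below that level. So did Dll4 (log2 5.94) and Cxcr5 (log2 4.81), named after their values were seen, whose interactions were larger than those of some of the 12. Of these 14 genes 12 had a promoter in the table. Among the 12 with a promoter, 2 (16.7%) held the kB letters and 3 (25%) the ISRE letters. Of the 144 genes with an interaction 109 had a promoter, and 17.4% of those held the kB letters and 15.6% the ISRE letters. Over the first promoter of all 27025 genes of the table the shares were 3.91% and 8.57%. A match is a string of letters, and binding was not measured.

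Among enzymes and secreted effectors of inflamed macrophages, Nos2, which makes nitric oxide in activated macrophages (chromosome 11, 78811613 to 78851080), measured 11.6, 12 and 9.53 CPM in knockout GM libraries and 19.9, 18.2 and 20.2 CPM in knockout water libraries. In wild-type cells it measured 141, 72.1 and 178 CPM with GM and 2.61, 2.42 and 0.33 CPM in water. Its order crossed, with knockout cells lower under GM (log2 -3.56, adjusted p = 0.00031) and higher in water (log2 3.44, adjusted p = 8e-04), and the interaction was log2 7.00, SE 0.66, adjusted p = 0.00049, or 6.48 without wild-type water replicate 3. Ptgs2, the cyclooxygenase COX-2 that makes prostaglandin precursors, measured 12.9, 12 and 14.8 CPM in knockout GM libraries and 9.62, 13.4 and 15.8 CPM in knockout water libraries. Wild-type libraries held 272, 135 and 343 CPM with GM, against 5.12, 6.05 and 28 CPM in water. Its fitted difference lay in the GM level (knockout minus wild type -4.24 under GM and -0.02 in water). Wild-type water replicate 3 lay well above replicates 1 and 2, and Ptgs2 (log2 4.22, SE 0.82, adjusted p = 0.039) passed in 8 of 19 alternatives, at log2 5.42 without that library. Acod1, which makes itaconate from an intermediate of the citrate cycle, measured 601, 576 and 551 CPM in knockout GM libraries and 471, 517 and 552 CPM in knockout water libraries. The wild-type levels were 736, 608 and 777 CPM with GM and 36.7, 37.8 and 138 CPM in water. Knockout cells were high in water and under GM alike, close to wild-type GM, and only the water gap passed (log2 2.86, adjusted p = 0.0012). The interaction of Acod1 (log2 3.15, SE 0.59, adjusted p = 0.033) passed in 9 of 19 alternatives and was log2 4.05 without wild-type water replicate 3.

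Lcn2, the siderophore-binding protein lipocalin 2, averaged 149 ± 10.3 in knockout GM, 106 ± 16.3 in knockout water, 100 ± 39.3 in wild-type GM and 2.88 ± 2.55 CPM in wild-type water (SD, n = 3 each). Its interaction (log2 4.62, SE 0.64, adjusted p = 0.0059) was placed in the water level (log2 5.20, adjusted p = 8.4e-05; under GM log2 0.57, adjusted p = 0.32, libraries apart), was log2 5.63 without wild-type water replicate 3 and failed in the limma-voom fit alone (adjusted p = 0.11). Vnn3, a pantetheinase of the vanin family, averaged 26.2 ± 2.2 in knockout GM, 32.5 ± 3.43 in knockout water, 18.2 ± 7.2 in wild-type GM and 0.869 ± 0.248 CPM in wild-type water. Its gap also passed in water only (log2 5.21, adjusted p = 4.4e-06; interaction log2 4.68, SE 0.41, adjusted p = 0.00028). It too failed in the limma-voom fit alone (adjusted p = 0.056). Saa3, an acute-phase serum amyloid A, averaged 339 ± 49.5 in knockout GM, 323 ± 44.6 in knockout water, 655 ± 178 in wild-type GM and 58.6 ± 2.64 CPM in wild-type water. Knockout cells were lower under GM (log2 -0.95, adjusted p = 0.0038) and higher in water (log2 2.46, adjusted p = 1.8e-05), with an interaction of log2 3.41, SE 0.27, adjusted p = 1e-04. Cfb, complement factor B, averaged 2.48 ± 0.563 in knockout GM, 2.64 ± 0.152 in knockout water, 10 ± 1.99 in wild-type GM and 0.199 ± 0.0456 CPM in wild-type water. It crossed in the same way (interaction log2 5.69, SE 0.38, adjusted p = 5.4e-05). Slc1a2, a glutamate transporter, averaged 1.32 ± 0.62 in knockout GM, 1.34 ± 0.212 in knockout water, 12.5 ± 7.09 in wild-type GM and 0.45 ± 0.132 CPM in wild-type water. Its gap under GM passed (log2 -3.24, adjusted p = 0.00069; interaction log2 4.79, SE 0.71, adjusted p = 0.0076), and the gap in water, with libraries apart, did not (log2 1.55, adjusted p = 0.057). It failed in the limma-voom fit alone (adjusted p = 0.31). Of 27 antimicrobial and immunometabolic effectors, all tested, 7 had a larger response in wild type, 5 placed in both levels and 2 in the water level. In water 17 of the 27 were higher in knockout cells, where 10.8% of all genes were, and the median interaction was log2 1.04. Neutrophil markers, 12 of 15 tested, had summed levels of 2450 to 2560 CPM with GM and 2400 to 2420 CPM with water in knockout cells, and 7 of the 12 were higher in knockout water than in wild-type water and 8 under GM. In wild-type cells the sums ranged between 1250 and 2560 CPM with GM and between 1570 and 2380 CPM with water. Mmp8, named after its values were seen, made up 86.3 to 94.8% of the sum in knockout libraries and 97.5 to 98.6% in wild-type libraries. The other 11 genes summed to 276 to 335 CPM in knockout GM, 125 to 200 CPM in knockout water, 25 to 58.7 CPM in wild-type GM and 22.2 to 59.5 CPM in wild-type water, so without Mmp8 the genotypes stood apart. The list's median knockout minus wild-type gap was log2 2.21 under GM and 2.12 in water. The listed markers with too few counts to be tested were Retnlg (0 in every library), Ly6g (at most 4) and Elane (at most 2). Among the tested ones S100a8 held 12952 counts over the 12 libraries, S100a9 9524, Csf3r 7156 and Mpo 86. The part of the neutrophil markers in the result was not tested.

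Among surface receptors, Clec4e (Mincle, a receptor for mycobacterial glycolipid) measured 336, 310 and 296 CPM in knockout GM libraries and 221, 283 and 257 CPM in knockout water libraries. Its level in wild type was 582, 351 and 701 CPM with GM and 27.6, 28.2 and 51 CPM in water. Knockout cells were higher in water (log2 2.83, adjusted p = 9.3e-05) and slightly lower under GM (log2 -0.80, adjusted p = 0.045), with an interaction of log2 3.63, SE 0.39, adjusted p = 0.001. Cd40, the co-stimulatory receptor for T cell CD40 ligand, was one of the 10 genes lower in knockout cells in both conditions. It averaged 6.41 ± 0.884 in knockout GM, 5.22 ± 1.04 in knockout water, 55.8 ± 8.16 in wild-type GM and 7.53 ± 0.829 CPM in wild-type water (SD, n = 3 each), and its knockout minus wild-type gap was -3.12 under GM and -0.52 in water (interaction log2 2.60, SE 0.24, adjusted p = 0.00039). Acp5, the tartrate-resistant acid phosphatase of osteoclasts and macrophages, averaged 53.5 ± 4.73 in knockout GM, 53 ± 2.13 in knockout water, 145 ± 19.7 in wild-type GM and 68.6 ± 7.37 CPM in wild-type water. It was lower in both as well (interaction log2 1.07, SE 0.16, adjusted p = 0.01). Adora2a, an adenosine receptor that damps inflammation, averaged 15.4 ± 1.11 in knockout GM, 12.4 ± 1.78 in knockout water, 36.3 ± 2.83 in wild-type GM and 8.64 ± 0.473 CPM in wild-type water. Its order crossed (interaction log2 1.75, SE 0.17, adjusted p = 0.00053). Ccr7, the receptor that guides cells to lymph nodes, averaged 163 ± 18.9 in knockout GM, 125 ± 11.5 in knockout water, 510 ± 41.1 in wild-type GM and 107 ± 38.3 CPM in wild-type water. Its gap passed under GM only (log2 -1.65, adjusted p = 0.00057), and its interaction (log2 1.87, SE 0.32, adjusted p = 0.02) passed in 13 of 19 alternatives. H2-Q4, a nonclassical class I gene with close relatives among which reads may be split, averaged 59.5 ± 2.51 in knockout GM, 64.4 ± 2.53 in knockout water, 162 ± 24.7 in wild-type GM and 62.3 ± 21.5 CPM in wild-type water. Its gap passed under GM only too (log2 -1.45, adjusted p = 5e-04; interaction log2 1.5, SE 0.28, adjusted p = 0.03; 10 of 19 alternatives). In the antigen presentation list 2 of 21 tested genes had a larger response in wild type (Ccr7 and H2-Q4).

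NF-kB targets and feedback genes had an interaction in 8 of 29 cases, all larger in wild type, and the list median was log2 0.65. Tnfaip3, which encodes the ubiquitin editor A20 that shuts NF-kB off, measured 95.1, 101 and 100 CPM in knockout GM libraries and 78.2, 83.9 and 85.1 CPM in knockout water libraries. In wild-type cells it measured 141, 134 and 137 CPM with GM and 52, 51.8 and 48.4 CPM in water. Its libraries hardly varied, the 4 groups did not overlap, and knockout cells were lower under GM (log2 -0.48, adjusted p = 0.00053) and higher in water (log2 0.70, adjusted p = 6e-05; interaction log2 1.18, SE 0.09, adjusted p = 0.00011). Nfkbiz, a nuclear IkB protein needed for secondary NF-kB targets such as Il6, averaged 43.8 ± 4.75 in knockout GM, 37.9 ± 5.24 in knockout water, 26.3 ± 8.22 in wild-type GM and 4.45 ± 1.07 CPM in wild-type water (SD, n = 3 each). It was one of the 16 genes higher in knockout cells in both conditions (0.73 under GM and 3.08 in water), with an interaction of log2 2.35, SE 0.33, adjusted p = 0.0064 that failed in the limma-voom fit alone (adjusted p = 0.16). Traf1, an adaptor of TNF receptors, averaged 63.1 ± 4.38 in knockout GM, 54.8 ± 3.62 in knockout water, 166 ± 17.1 in wild-type GM and 52.4 ± 17.2 CPM in wild-type water. Its gap passed under GM alone (interaction log2 1.46, SE 0.28, adjusted p = 0.041; 7 of 19 alternatives). Among brakes on inflammation, the nuclear receptor gene Nr4a2 averaged 2.15 ± 0.238 in knockout GM, 2 ± 0.661 in knockout water, 18.3 ± 5.42 in wild-type GM and 3.14 ± 0.77 CPM in wild-type water. The gap passed under GM only (log2 -3.08, adjusted p = 6.8e-05; interaction log2 2.44, SE 0.43, adjusted p = 0.023; 10 of 19 alternatives). Dusp16, a phosphatase of MAP kinases, averaged 34.3 ± 0.79 in knockout GM, 30.8 ± 2.67 in knockout water, 63.6 ± 3.97 in wild-type GM and 37.9 ± 1.67 CPM in wild-type water. It was lower in knockout in both conditions (interaction log2 0.59, SE 0.12, adjusted p = 0.045; 5 of 19 alternatives). Together with Adora2a these were the 3 of 22 anti-inflammatory genes with an interaction.

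Of 41 type I interferon response genes 40 were tested and 18 had a larger response in wild type, 7 placed in the GM level, 11 in both levels and 0 in the water level. The fitted interaction was positive in all 40, as in 45.6% of all genes, the list median was log2 1.91, and the median GM response was -0.24 in knockout and 1.5 in wild type. Isg15, a ubiquitin-like protein attached to antiviral targets (chromosome 4, 156283912 to 156285253), measured 18.9, 13.3 and 11.8 CPM in knockout GM libraries and 14.6, 15.1 and 20.3 CPM in knockout water libraries. Wild-type libraries held 79.8, 73.1 and 94 CPM with GM, against 5.82, 11.4 and 6.32 CPM in water. Wild-type GM libraries stood apart from all others, and knockout cells were above wild-type cells in water (interaction log2 3.58, SE 0.37, adjusted p = 0.00082; knockout minus wild type -2.49 under GM and 1.09 in water). Ifit1, an RNA-binding antiviral protein, measured 48.6, 36 and 30.1 CPM in knockout GM libraries and 50.3, 42.7 and 55.8 CPM in knockout water libraries. The wild-type levels were 155, 132 and 196 CPM with GM and 9.53, 19.4 and 1.92 CPM in water. Its wild-type water libraries spread widely, with replicate 3 lowest, and the interaction (log2 4.35, SE 0.76, adjusted p = 0.023) was log2 3.83 without that library and passed in 8 of 19 alternatives. Knockout cells were lower than wild-type cells under GM (log2 -2.07, adjusted p = 0.014) and higher in water (log2 2.27, adjusted p = 0.013).

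Ifit3, a partner of Ifit1, averaged 23.6 ± 8.41 in knockout GM, 29.3 ± 3.28 in knockout water, 86.4 ± 9.26 in wild-type GM and 6.55 ± 5.67 CPM in wild-type water (SD, n = 3 each). It crossed like Ifit1 (interaction log2 4.04, SE 0.82, adjusted p = 0.049), close to the threshold, and passed in 4 of 19 alternatives. Ifit1bl1, a relative of Ifit1, averaged 4 ± 1.38 in knockout GM, 5.47 ± 0.804 in knockout water, 26.2 ± 8 in wild-type GM and 1.74 ± 1.44 CPM in wild-type water. It was placed in the GM level (interaction log2 4.37, SE 0.85, adjusted p = 0.041; 6 of 19 alternatives), while its water libraries were apart without passing (log2 1.65, adjusted p = 0.073). Reads may be split among these related Ifit genes. Cmpk2, a mitochondrial nucleotide kinase, averaged 17.4 ± 3.24 in knockout GM, 23.5 ± 4.14 in knockout water, 98 ± 18.8 in wild-type GM and 8.26 ± 5.64 CPM in wild-type water. Its order crossed (interaction log2 4.0, SE 0.61, adjusted p = 0.01; 17 of 19 alternatives). Ifi205, a PYHIN protein with near-identical neighbours, averaged 1.79 ± 0.392 in knockout GM, 2.43 ± 0.782 in knockout water, 34.2 ± 10.8 in wild-type GM and 0.613 ± 0.886 CPM in wild-type water. Its gap under GM passed (log2 -4.25, adjusted p = 0.00083) and its gap in water, again with libraries apart, did not (log2 2.04, adjusted p = 0.061; interaction log2 6.30, SE 0.94, adjusted p = 0.0087; 18 of 19 alternatives). Bst2, the virus-tethering protein tetherin, averaged 146 ± 15.4 in knockout GM, 163 ± 10.1 in knockout water, 297 ± 75.4 in wild-type GM and 149 ± 21.3 CPM in wild-type water. Its gap passed under GM only (interaction log2 1.16, SE 0.23, adjusted p = 0.047; 9 of 19 alternatives). Ms4a4c, of the monocyte marker list, averaged 1.82 ± 0.773 in knockout GM, 3.53 ± 0.43 in knockout water, 17 ± 4.78 in wild-type GM and 1.89 ± 1.25 CPM in wild-type water. Its gap passed under GM (log2 -3.2, adjusted p = 0.0012; interaction log2 4.11, SE 0.71, adjusted p = 0.021; 11 of 19 alternatives). In water its knockout libraries lay above all wild-type libraries without passing (log2 0.90, adjusted p = 0.21).

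Guanylate-binding proteins and immunity GTPases, which attack vacuoles of intracellular microbes, had positive fitted interactions in 14 of 14 tested genes (45.6% of all genes) with a median of log2 1.98, but only Gbp6 passed. Gbp6 averaged 5.38 ± 1.06 in knockout GM, 8.41 ± 0.567 in knockout water, 17.6 ± 1.58 in wild-type GM and 3.36 ± 1.05 CPM in wild-type water (SD, n = 3 each). Its order crossed (interaction log2 3.04, SE 0.30, adjusted p = 0.00054). Without wild-type water replicate 3 the interaction passed for 9 of the 14. The knockout level was lower under GM for 13 of the 14 and in water for 1, beside the 16.7% and 14.3% of all genes.

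The start regions of Ifi205, Ifit1bl1 and Ifit1 are shown because they hold the ISRE letters. Capitals mark matches to GAAANNGAA on either strand. Ifi205 (chr1:174031706-174032005, minus strand) and Ifit1bl1 (chr19:34601919-34602218, minus strand) hold 2 matches each. Ifit1 (chr19:34640639-34640938, plus strand) holds 3, of which 2 overlap and run together.
Ifi205: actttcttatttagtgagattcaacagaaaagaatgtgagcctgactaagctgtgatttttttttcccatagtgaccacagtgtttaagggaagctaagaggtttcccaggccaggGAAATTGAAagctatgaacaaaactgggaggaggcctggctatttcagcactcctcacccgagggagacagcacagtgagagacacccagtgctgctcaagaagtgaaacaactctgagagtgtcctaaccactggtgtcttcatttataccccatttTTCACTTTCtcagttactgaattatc
Ifit1bl1: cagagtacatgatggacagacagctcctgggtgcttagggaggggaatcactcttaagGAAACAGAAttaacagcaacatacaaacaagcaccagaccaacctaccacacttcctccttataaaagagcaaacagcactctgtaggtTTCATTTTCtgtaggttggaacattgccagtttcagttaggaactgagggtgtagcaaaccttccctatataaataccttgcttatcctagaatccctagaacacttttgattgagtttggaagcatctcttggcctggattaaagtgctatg
Ifit1: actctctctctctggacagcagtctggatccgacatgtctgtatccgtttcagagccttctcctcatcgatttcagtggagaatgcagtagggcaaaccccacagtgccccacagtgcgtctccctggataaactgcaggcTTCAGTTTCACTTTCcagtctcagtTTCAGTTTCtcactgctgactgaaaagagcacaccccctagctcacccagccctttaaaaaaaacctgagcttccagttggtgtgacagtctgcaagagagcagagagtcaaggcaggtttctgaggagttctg

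Receptors of lipopolysaccharide and of muramyl peptides were followed whether or not they passed. Cd14 measured 363, 337 and 359 CPM in knockout GM libraries and 262, 270 and 288 CPM in knockout water libraries. Its level in wild type was 473, 264 and 531 CPM with GM and 51.6, 50.8 and 140 CPM in water. Wild-type water replicate 3 was well above replicates 1 and 2, and the interaction did not pass (log2 2.02, SE 0.52, adjusted p = 0.15) except in 5 of 19 alternatives, among them the one without that library (log2 2.65). Its gap passed in water (log2 1.76, adjusted p = 0.0067), with overlap under GM. Ly96, the MD-2 partner of TLR4, averaged 8.98 ± 0.168 in knockout GM, 9.59 ± 0.399 in knockout water, 12.3 ± 3.25 in wild-type GM and 11.1 ± 2.53 CPM in wild-type water (SD, n = 3 each). It passed in neither condition (interaction log2 0.24, 95% interval -0.37 to 0.86). Nod2 averaged 16.6 ± 0.298 in knockout GM, 17.1 ± 0.258 in knockout water, 18.9 ± 7.72 in wild-type GM and 12.9 ± 2.85 CPM in wild-type water. Ripk2 averaged 22.9 ± 0.854 in knockout GM, 22 ± 1.93 in knockout water, 44.3 ± 5.36 in wild-type GM and 40.6 ± 10.8 CPM in wild-type water. The interaction of Nod2 was log2 0.60 (95% interval -0.16 to 1.36, adjusted p = 0.78) and that of Ripk2 log2 0.06 (95% interval -0.45 to 0.58, adjusted p = 1), and the sign of the second changed with single libraries. Ripk2 was lower in knockout cells under GM (log2 -0.95, adjusted p = 0.0021) and in water (log2 -0.88, adjusted p = 0.0035). Of 27 genes of the TLR4 complex and its adaptors only Traf3 had an interaction, a TRIF-pathway ubiquitin ligase that averaged 61 ± 2.81 in knockout GM, 65.8 ± 1.43 in knockout water, 87.8 ± 3.88 in wild-type GM and 59.9 ± 6.03 CPM in wild-type water. Its gap passed under GM only (interaction log2 0.66, SE 0.12, adjusted p = 0.022; 10 of 19 alternatives). Of 22 tested genes of other Toll-like and NOD receptors only Clec4e passed.

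Each of the other lists had 2 passing members or fewer. In the inflammasome list of 18 they were Casp4, the mouse caspase 11 that senses cytosolic lipopolysaccharide, and Mefv, the inflammasome sensor pyrin. Casp4 averaged 35.5 ± 1.04 in knockout GM, 37 ± 2.52 in knockout water, 32.3 ± 4.6 in wild-type GM and 15.4 ± 2.3 CPM in wild-type water (SD, n = 3 each). It overlapped between the genotypes under GM and differed in water (log2 1.27, adjusted p = 8.8e-05; interaction log2 1.13, SE 0.18, adjusted p = 0.013; 16 of 19 alternatives). Mefv averaged 25.7 ± 1.62 in knockout GM, 17.2 ± 0.686 in knockout water, 12.4 ± 2.06 in wild-type GM and 4.06 ± 0.0547 CPM in wild-type water. It was higher in knockout cells in both conditions (interaction log2 1.02, SE 0.18, adjusted p = 0.022; 9 of 19 alternatives). Pfkfb3, which raises glycolytic flux, averaged 110 ± 2.1 in knockout GM, 100 ± 6.85 in knockout water, 218 ± 21.2 in wild-type GM and 89.7 ± 9.24 CPM in wild-type water. Its gap passed under GM only, and it was the only one of 21 glycolysis genes with an interaction (log2 1.15, SE 0.14, adjusted p = 0.0019). Pmvk, of the mevalonate pathway, averaged 23.8 ± 2.5 in knockout GM, 22 ± 1.7 in knockout water, 30 ± 4.03 in wild-type GM and 12.4 ± 1.46 CPM in wild-type water. Its gap passed in water only, and it was the only one of 23 tested cholesterol genes with an interaction (log2 1.16, SE 0.19, adjusted p = 0.015; 14 of 19 alternatives). The alternative activation list had 1 of 16 tested genes, Ccl22. The count was 0 of 22 NRF2 genes, 0 of 17 tested LXR targets, 0 of 34 cell cycle genes and 0 of 19 tested macrophage identity genes. Cell cycle genes had a genotype gap instead, with knockout higher under GM for 28 of 34 (13.3% of all genes) and higher in water for 22 of 34 (10.8% of all genes), and their median interaction was log2 -0.30.

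**Figure D4:**
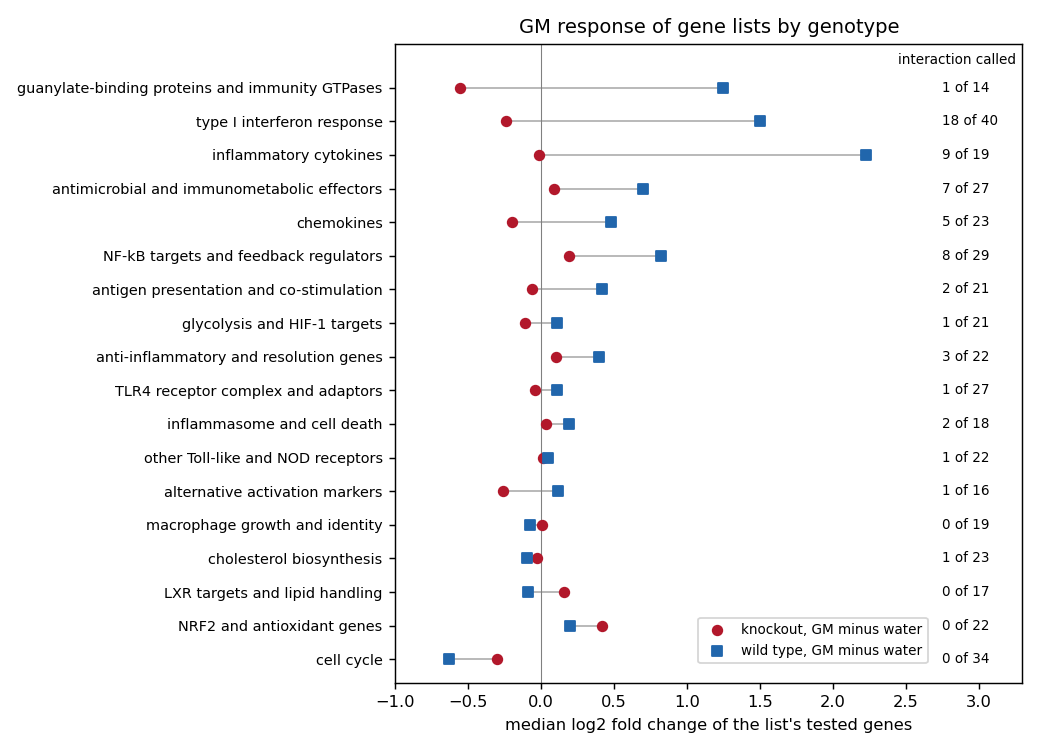
Median log2 fold change of GM over water in knockout cells (red circles) and wild-type cells (blue squares) for the tested genes of each list, ordered by median interaction; counts give the genes whose interaction was larger in wild type. The cytokine and interferon lists have wild-type medians of 2.23 and 1.5 beside knockout medians of -0.01 and -0.24.

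Tfrc and Nit2 were the 2 genes with a lower GM response in wild type. Tfrc, the transferrin receptor that brings iron into cells (chromosome 16, 32427738 to 32451612), measured 262, 287 and 285 CPM in knockout GM libraries and 203, 227 and 219 CPM in knockout water libraries. In wild-type cells it measured 85.1, 99.1 and 124 CPM with GM and 186, 161 and 148 CPM in water. It fell with GM in wild-type cells (log2 -0.68, adjusted p = 0.017), while the change in knockout cells did not pass (log2 0.36, adjusted p = 1), and the gap passed under GM (log2 1.44, adjusted p = 4.7e-05) but not in water (log2 0.39, adjusted p = 0.05), where the libraries were nevertheless apart. Its interaction (log2 -1.04, SE 0.19, adjusted p = 0.025) passed in 8 of 19 alternatives. Nit2, an amidase of glutamine metabolism, measured 14.9, 15.2 and 14.2 CPM in knockout GM libraries and 11.4, 11.8 and 10.7 CPM in knockout water libraries. Wild-type libraries held 12.7, 13.7 and 12.2 CPM with GM, against 17.1, 16.4 and 15.7 CPM in water. Knockout cells were lower in water (log2 -0.54, adjusted p = 0.003). Under GM every knockout library lay above every wild-type library, but that gap did not pass. Neither response passed by itself, and the interaction (log2 -0.74, SE 0.14, adjusted p = 0.033) passed in 5 of 19 alternatives. Both lie on chromosome 16.

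**Figure D5:**
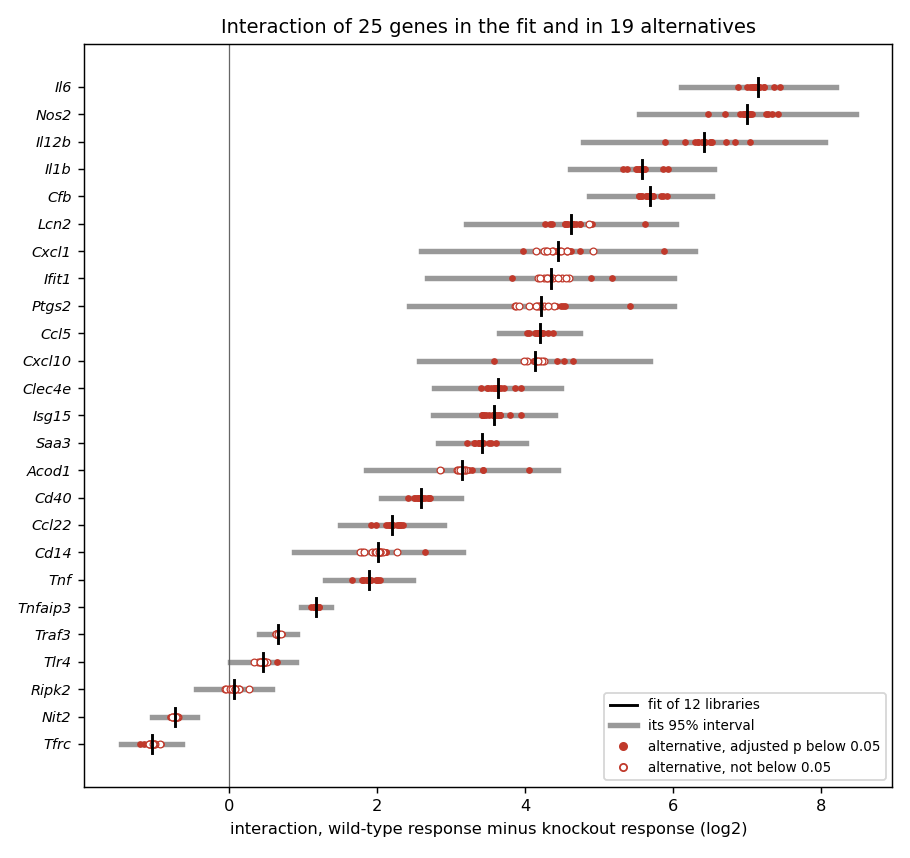
Interaction of 25 genes (log2, wild-type response minus knockout response) in the fit of 12 libraries (black bar, with its 95% interval in grey) and in 19 alternative fits (filled where the adjusted p was below 0.05, open where it was not). Il6, Nos2, Il12b, Il1b and Ccl5 are filled throughout, whereas Cxcl1, Ifit1, Ptgs2 and Acod1 are open in 10 or more.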

How the data were processed

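The deposited table holds the authors' raw read counts per gene. Per the submitters' processing notes, reads were aligned with HISAT2 2.0.5 to GRCm39 and counted with featureCounts 1.5.0-p3. Settings and the annotation release are not given in the sources used here. Per the labels' protocols, libraries were directional and poly(A)-enriched. A deposited table in another unit was not used.

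Counts of 12 libraries (15532973 to 21128507 each) were fitted with edgeR 4.0.16 (R 4.3.3). filterByExpr (minimum count 10) kept 15117 genes and at least 99.91% of each library's counts, and TMM factors ran from 0.8834 to 1.063. A robust quasi-likelihood fit of 4 group means (8 residual degrees of freedom) gave 5 comparisons: the interaction, knockout against wild type under GM and in water, and GM against water in each genotype. Tests were 2-sided F tests, adjusted by Benjamini-Hochberg over all 15117 genes and called below 0.05. CPM are counts scaled to 1000000 on the TMM scale. Scripts were tested on simulated data.

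Named genes were the up to 12 protein-coding genes with the largest interaction in each direction (mean of at least 5 CPM in a group), up to 4 passing members of each list by size, and a panel of 18. The rule, lists and members were chosen with earlier results of these data known. Alternatives were all 18 libraries, DESeq2 1.42.0, RLE factors, no filter, limma-voom (limma 3.58.1) with a spread per group, 2 replicate blocks and each library left out. Within a group the counts of any 2 libraries differed by more than sampling noise (chi-square per gene 3.3 to 142). In wild-type water it was 4.2 between replicates 1 and 2, and 142 and 116 between these and replicate 3. Separate preparations of the same sample can differ in this way too, so the check does not show independent samples. Each library counted as 1 replicate, as labelled. Same-numbered libraries deviated together (correlation above 0.1) in 2 of 18 pairs, numbers 2 and 3 between wild-type GM and wild-type water (0.762 and 0.723) but not number 1 (-0.227), so the numbers were not used as pairs. A floor of 3 counts over the group covers counting error only.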

Additional observations from a re-analysis of the deposited data

Results flagged for a closer look

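For 45 named genes the GM responses of the 2 genotypes differed in a test of the difference itself (edgeR's quasi-likelihood test on 12 libraries, adjusted p from 5.2e-05 to 0.049). All values here are log2 interactions, the wild-type response minus the knockout response. Among cytokines they were 9.74 for Csf3 and 8.67 for Il12a, both fitted against 0 counts in wild-type water and therefore no bounds, 7.16 for Il6, 6.42 for Il12b, 5.59 for Il1b and 1.89 for Tnf. Among chemokines the interaction was 4.44 for Cxcl1, 4.20 for Ccl5, 4.13 for Cxcl10 and 2.20 for Ccl22. Effector genes had interactions of 7.00 for Nos2, 5.69 for Cfb, 4.79 for Slc1a2, 4.68 for Vnn3, 4.62 for Lcn2, 4.22 for Ptgs2, 3.41 for Saa3 and 3.15 for Acod1. For receptors and surface proteins the interaction was 3.63 for Clec4e, 2.60 for Cd40, 1.87 for Ccr7, 1.75 for Adora2a, 1.5 for H2-Q4, 4.11 for Ms4a4c and 1.07 for Acp5. Interferon response genes had interactions of 6.30 for Ifi205, 4.37 for Ifit1bl1, 4.35 for Ifit1, 4.04 for Ifit3, 4.0 for Cmpk2, 3.58 for Isg15, 3.04 for Gbp6 and 1.16 for Bst2. Regulators of signalling had interactions of 2.44 for Nr4a2, 2.35 for Nfkbiz, 1.46 for Traf1, 1.18 for Tnfaip3, 0.66 for Traf3 and 0.59 for Dusp16. The remaining interactions were 1.16 for Pmvk, 1.15 for Pfkfb3, 1.13 for Casp4, 1.02 for Mefv, -0.74 for Nit2 and -1.04 for Tfrc. In 18 of the 45 genes the call held in all 19 alternatives.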

How the results depend on the processing

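The interaction count of 144 genes was 287 with all 18 libraries and 316 with DESeq2. It ran from 71 to 515 with single libraries left out. The count was highest without wild-type water replicate 3 and between 71 and 90 with any single knockout library left out. Genes with a larger response in wild type (142) numbered 273 with all 18 libraries, 286 with DESeq2 and 71 to 395 with single libraries left out. Genes with a lower one (2) numbered 14 with all 18 libraries, 30 with DESeq2, 1 without the filter, 1 with limma-voom, and 0 to 120 with single libraries left out. GM against water in knockout (0 genes) gave 3 with all 18 libraries, 34 with DESeq2, 4 without the filter, 343 with limma-voom and 0 to 16 with single libraries left out. In wild type (425 genes) it gave 729 with all 18 libraries, 749 with DESeq2, 152 with limma-voom and 291 to 2215 with single libraries left out. Knockout against wild type ran from 2813 to 6596 genes under GM (main value 4541) and from 2266 to 4318 in water (main value 3804) with single libraries left out. The replicate numbers were not used as pairs in the main fit. With number as a block over all groups 107 genes had an interaction, 1 of them lower in wild type. With the block within each genotype the interaction was called in 203 genes, 8 of them lower in wild type, GM in knockout in 1, GM in wild type in 658, and knockout against wild type in 2633 under GM and 2304 in water. Deviations of wild-type GM and water libraries correlated at -0.227 for number 1, 0.762 for number 2 and 0.723 for number 3. A pairing within wild type was therefore neither shown nor excluded. The Ripk2 interaction (0.06) changed sign without wild-type water replicate 1 (-0.05912), wild-type water replicate 2 (-0.001177) and wild-type GM replicate 3 (-0.03488), and was highest, 0.268, without wild-type water replicate 3. No other named gene changed sign in any of the 19 alternatives. The median interaction of the NRF2 list was -0.24, and 0.51 without wild-type water replicate 3. Unless a value above shows it, the cause was not tested. At this depth Il10 and Ifnb1 could not be tested, and wild-type spread limits small interactions.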
